A study of Mus musculus with 10 samples.

Results

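The genes described here are 10 members of the BCL2 family, which sets whether a cell survives or dies through its mitochondria. They were taken by gene symbol from the count table, in which all 10 were present among 26146 genes. Of these members, *Mcl1*, *Bcl2*, *Bcl2l1* and *Bcl2l2* are anti-apoptotic, *Bax* and *Bak1* are the pro-apoptotic effectors, and *Bcl2l11*, *Bbc3*, *Bid* and *Bad* are pro-apoptotic BH3-only genes. RNA came from sorted hematopoietic stem cells (HSCs), which the study gates as LSK CD48- CD150+ cells and in places also as Flt3- and CD34-. LSK stands for lineage-negative, Sca-1-positive and c-Kit-positive bone marrow cells. There were 5 Cited2 CTL mice (labelled wildtype; Cited2 fl/fl, with no Cre) and 5 Cited2 CKO mice (labelled Cited2 KO; Cited2 fl/fl;Vav-iCre), with 1 library per mouse. Both groups carried the floxed alleles on a C57BL/6J background, were 8 to 12 weeks old and had received no treatment that the labels name. *Vav-iCre* is active throughout the hematopoietic system from fetal life, so the CKO HSCs came from animals that lacked *Cited2* in other blood cells as well, and only the CKO mice carried Cre.

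The anti-apoptotic proteins hold the effectors BAX and BAK in check at the outer mitochondrial membrane, and the BH3-only proteins relay stress by binding the anti-apoptotic proteins or by activating the effectors directly. Once BAX or BAK forms pores, cytochrome c leaves the mitochondria and the caspases are activated. MCL-1 is a short-lived protein on which HSCs are known to depend, so the amount of its transcript and the balance of the family's members are of interest in these cells. CITED2 is a transcriptional co-regulator that is needed for HSC maintenance, and the comparison asks how the expression of the family differs when *Cited2* is deleted.

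The shared feature of the family is the BH3 motif, through which a pro-apoptotic member binds the groove of an anti-apoptotic one. The coding DNA of the motif's core is shown for all 10 members because it is what joins genes that otherwise have opposite roles. Each line holds 8 codons, 5′ to 3′, read from the GENCODE transcripts of GRCm38. The capitals mark the codon of the first hydrophobic residue, the codon of the small residue and the codon of the aspartate that follows it.
Mcl1: CTGcggcgcgtgGGCGACggcgtg
Bcl2: CTCcgccgggctGGGGATgacttc
Bcl2l1: CTGagagaggcaGGCGATgagttt
Bcl2l2: ATGcgggctgctGGAGACgagttt
Bax: CTCcggcgaattGGAGATgaactg
Bak1: CTTgctctcatcGGAGATgatatt
Bcl2l11: CTGcggcggatcGGAGACgagttc
Bbc3: CTGcggcggatgGCGGACgacctc
Bid: CTCgcccaaataGGCGATgagatg
Bad: CTCcgaaggatgAGCGATgagttt
The first marked codon encodes leucine in all of these except *Bcl2l2*, where it encodes methionine. The small residue is glycine except in *Bbc3*, where it is alanine, and in *Bad*, where it is serine. The core starts at codon 194 of 331 in *Mcl1*, codon 150 of 196 in *Bcl2l11* and codon 141 of 193 in *Bbc3*, and at codon 46 of 193 in *Bcl2l2*. The pattern was written with the family's motif known, each of the 10 coding sequences held it once, and 2173 of 21539 coding sequences of the annotation (10.1%) also held it, so a match to it does not by itself mark a BH3 domain.

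The counts per library summed to between 3058690 and 4548795 in the CTL group and between 3500215 and 4315029 in the CKO group, and 14165 genes passed the filter on low counts, all 10 members among them. *Cited2* was expressed at 101, 171, 162, 222 and 160.2 CPM (the count relative to the TMM-normalized library total) in CTL 1 to CTL 5. The values of CKO 1 to CKO 5 were 3.80, 4.21, 120.1, 4.998 and 8.30 CPM. CKO 3, as it is labelled, thus held *Cited2* within the CTL range and goes against its label, so the members' values are also given without it. Summed over 9 HSC markers, expression was 1646 to 1837 CPM in CKO and 1861 to 2151 CPM in CTL, without overlap, although none of the 9 genes passed the test. Of the other marker lists, the sums overlapped between the genotypes and lay at 500.1 to 595 CPM in CTL against 515 to 562 in CKO for multipotent and lymphoid progenitors, 403 to 492 against 385 to 534 for megakaryocytes, and 35.1 to 62.6 against 35.4 to 51.4 for erythroid cells. Within the progenitor list *Cd48*, whose product was gated against in the sort, was called higher in CKO, at a mean of 21.6 CPM in CTL and 49.0 CPM in CKO (log2 fold change 1.18, edgeR adjusted p = 0.0264). It was the only 1 of the 5 genes of that list to be called, and the list had no common direction. *Dntt* and *Il7r* also had positive log2 fold changes, whereas those of *Flt3* (-0.357) and *Cd34* (-0.037) were negative. The sums were 49.8 to 579.8 CPM against 56.7 to 335 for granulocytes, with *Ly6g* at 0 counts in all libraries, 217 to 268 against 218 to 263 for monocytes, 49.7 to 88.6 against 52.9 to 69.7 for B cells, and 5.02 to 9.85 against 4.41 to 14.7 for T cells. The part of these differences in the values of the BCL2 family was not tested. In bulk samples, fewer cells of a type and less RNA per cell cannot be told apart.

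None of the 10 members differed between the genotypes at an adjusted p under 0.05 and a fold change above 20% (edgeR's quasi-likelihood test, Benjamini-Hochberg adjustment over all tested genes), where 32 of all 14165 tested genes (0.226%) did. DESeq2's Wald test called none of the members either, against 296 of all tested genes (2.09%). At an unadjusted p under 0.05, 1 member, *Mcl1*, was higher in CKO, where 5.80% of all tested genes were, and none was lower, where 7.08% were. The CPM ranges of the genotypes overlapped for all 10 members. Over all tested genes, 471 (3.33%) had ranges without overlap, so the absence of such ranges among 10 genes lies near that share. The log2 fold change was positive for 5 members and negative for 5, and its median was -0.01 over the members and 0.01 over all tested genes. The confidence intervals were narrow for the well-expressed members. A doubling or halving lay outside the 95% interval for every member except *Bak1*. For the scarce *Bbc3* (fold 0.525 to 1.11) and *Bcl2l2* (fold 0.685 to 1.77) the intervals were wide and came near these limits.

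**Figure D1:**
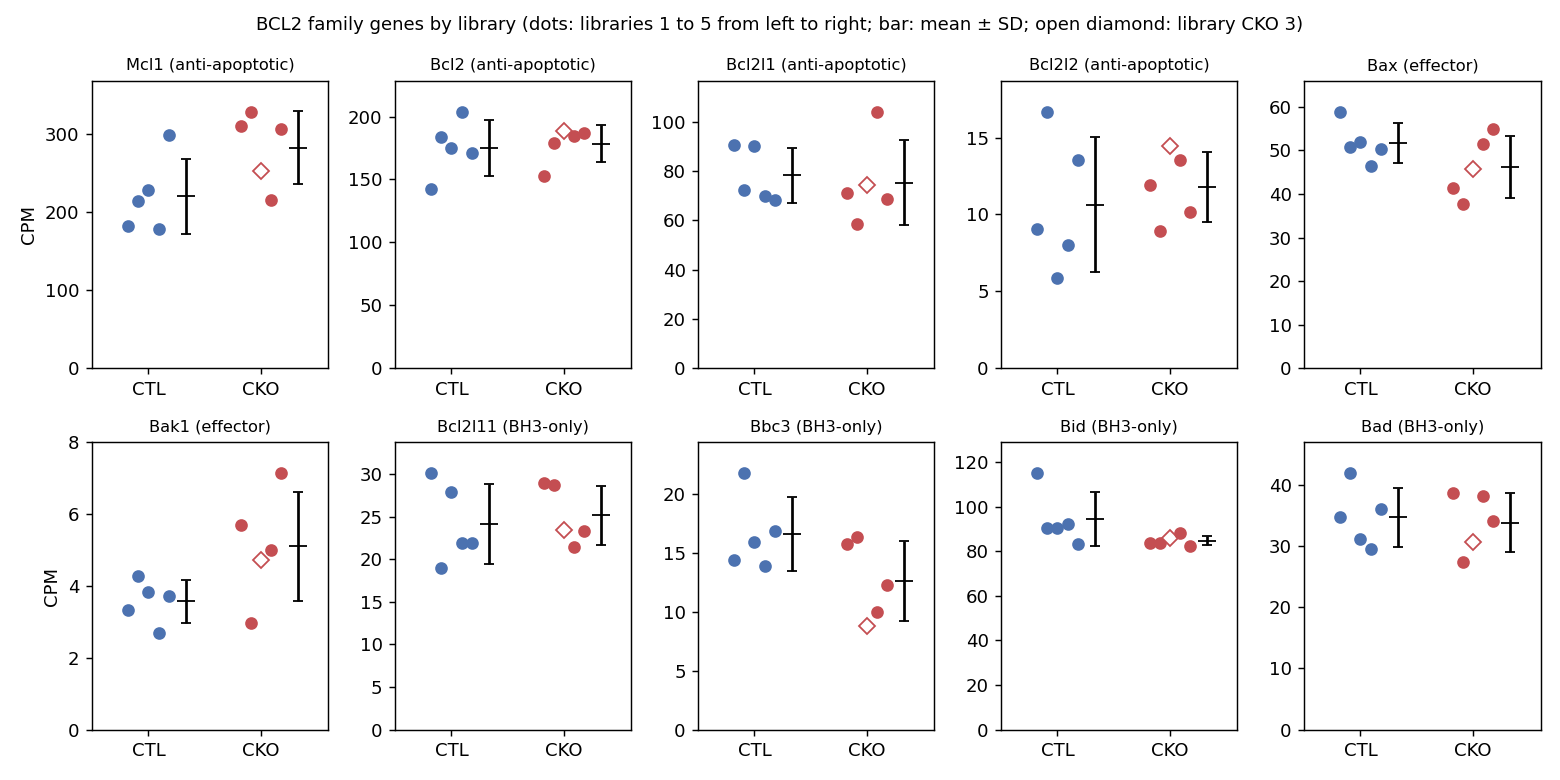
CPM of each of the 10 members in the CTL (blue) and CKO (red) libraries, with a dot per library, the library labelled CKO 3 as an open diamond, and the mean ± SD of each group as a bar (n = 5 each). The ranges of the genotypes overlap in every panel, and *Mcl1* spans 178 to 298 CPM in CTL and 215 to 328 CPM in CKO.

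Among the anti-apoptotic members, *Mcl1* had the largest difference in size relative to its error. *Mcl1* (chromosome 3, 95658788 to 95663176, plus strand of GRCm38) encodes a survival protein that binds BAK and the BH3-only proteins BIM, PUMA and NOXA. It was expressed at 182, 214, 228, 178 and 298 CPM in CTL 1 to CTL 5, and at 309.95, 328, 252, 215 and 306 CPM in CKO 1 to CKO 5. In CKO, 3 libraries lay above every CTL library, whereas CKO 3 and CKO 4 lay within the CTL range, and CTL 5 stood apart from the other CTL libraries at the top of its group. The means were 220.0 ± 48.3 CPM in CTL and 282 ± 46.9 CPM in CKO (SD, n = 5 each). The log2 fold change was 0.36 (standard error 0.14, 95% interval 0.05 to 0.67), a 1.28-fold higher level in CKO with an interval of 1.04 to 1.59. Its unadjusted p was 0.0250 and its adjusted p 0.321 in edgeR's quasi-likelihood test, DESeq2 gave an adjusted p of 0.192, and a two-sided exact permutation test on CPM gave p = 0.0794. The difference in *Mcl1* transcript was therefore not called. Without the library labelled CKO 3 the log2 fold change was 0.40 (edgeR adjusted p = 0.320). *Mcl1* ranked 1102nd of 14165 tested genes by p, and its expression exceeded that of 96.3% of them.

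The other anti-apoptotic members were nearly level between the genotypes. *Bcl2* (chromosome 1, 106538178 to 106714274, minus strand), the founding survival gene of the family, was expressed at 142, 183, 175, 204 and 171 CPM in CTL and at 153, 179, 189, 185 and 187 CPM in CKO. CTL 1 and CKO 1 were the lowest library of their groups, and the other CKO libraries lay close together inside the CTL range. The log2 fold change was 0.03, with an interval of -0.18 to 0.23 (edgeR adjusted p = 0.938), which is a fold of 0.884 to 1.17. *Bcl2l1* (chromosome 2, 152780668 to 152831728, minus strand), which encodes BCL-XL, the survival protein of platelets and late erythroid cells, was expressed at 90.6, 72.5, 90.3, 69.95 and 68.3 CPM in CTL and at 71.1, 58.6, 74.5, 104 and 68.7 CPM in CKO. CKO 4 held the highest and CKO 2 the lowest value of all 10 libraries, and the log2 fold change was -0.05 with an interval of -0.38 to 0.27 (edgeR adjusted p = 0.912). CKO 4 was thus the highest CKO library for *Bcl2l1* and the lowest for *Mcl1*. *Bcl2l2* (chromosome 14, 54883377 to 54888234, plus strand), which encodes BCL-W, was the least abundant anti-apoptotic member, at 9.03, 16.7, 5.88, 8.04 and 13.6 CPM in CTL and at 11.9, 8.91, 14.4, 13.5 and 10.1 CPM in CKO. All CKO libraries of *Bcl2l2* lay inside the CTL range. At 20 to 66 counts per library its log2 fold change of 0.14 had a wide interval, from -0.55 to 0.83 (edgeR adjusted p = 0.892).

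The effectors differed from each other in abundance and in the sign of their difference, and neither passed the test. *Bax* (chromosome 7, 45461697 to 45466898, minus strand), whose protein moves from the cytosol to the mitochondria to form pores, was expressed at 58.9, 50.8, 52.0, 46.3 and 50.3 CPM in CTL and at 41.4, 37.6, 45.6, 51.4 and 54.8 CPM in CKO. CKO 1, CKO 2 and CKO 3 lay below every CTL library, and CKO 4 and CKO 5 lay inside the CTL range. The log2 fold change was -0.16, with an interval of -0.45 to 0.12 (edgeR adjusted p = 0.658), and it was -0.098 without CKO 2. *Bak1* (chromosome 17, 27019810 to 27029009, minus strand), whose protein resides at the mitochondria and is held there by MCL-1 and BCL-XL, was expressed at 3.34, 4.29, 3.82, 2.68 and 3.72 CPM in CTL and at 5.70, 2.97, 4.73, 4.998 and 7.14 CPM in CKO. All CKO libraries except CKO 2 lay above every CTL library. Its log2 fold change of 0.51 was the largest of the members, but it rested on 10 to 31 counts per library and had an interval of -0.42 to 1.45 (edgeR adjusted p = 0.667; two-sided exact permutation test on CPM, p = 0.0714).

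The BH3-only members likewise showed no difference that passed the test. *Bcl2l11* (chromosome 2, 128126038 to 128162547, plus strand) encodes BIM, which is induced by cytokine withdrawal and binds all of the anti-apoptotic members above. It was expressed at 30.1, 18.9, 27.9, 21.9 and 21.9 CPM in CTL and at 29.0, 28.7, 23.4, 21.5 and 23.3 CPM in CKO. The CKO libraries all lay inside the CTL range, and the log2 fold change was 0.06 with an interval of -0.32 to 0.45 (edgeR adjusted p = 0.915). *Bbc3* (chromosome 7, 16308393 to 16318205, plus strand) encodes PUMA, which p53 induces after DNA damage. It was expressed at 14.4, 21.7, 15.9, 13.9 and 16.8 CPM in CTL and at 15.7, 16.3, 8.75, 9.995 and 12.2 CPM in CKO. CKO 3, CKO 4 and CKO 5 lay below every CTL library, and CKO 1 and CKO 2 lay inside the CTL range. The log2 fold change of *Bbc3* was -0.39, the most negative of the members, with an interval of -0.93 to 0.14 (edgeR adjusted p = 0.545), and it was -0.29 without the library labelled CKO 3.

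*Bid* (chromosome 6, 120891930 to 120916853, minus strand) links death receptors to the mitochondria once caspase-8 has cleaved its protein. It was expressed at 115, 90.7, 90.5, 92.4 and 83.1 CPM in CTL and at 83.9, 83.9, 85.8, 88.2 and 82.5 CPM in CKO. The CKO libraries lay close together, and CTL 1 stood above all other libraries. The means of *Bid* were 94.4 ± 12.1 CPM in CTL and 84.9 ± 2.21 CPM in CKO (SD, n = 5 each), and the log2 fold change of -0.15 (interval -0.36 to 0.06, edgeR adjusted p = 0.549) was -0.08 without CTL 1. For *Bid* the two-sided exact permutation test on CPM gave p = 0.0556, the smallest of the members in that test. *Bad* (chromosome 19, 6941861 to 6951899, plus strand), whose protein binds BCL-2, BCL-XL and BCL-W unless it is phosphorylated by survival kinases, was expressed at 34.8, 41.9, 31.2, 29.5 and 36.1 CPM in CTL and at 38.7, 27.5, 30.7, 38.2 and 34.1 CPM in CKO. Its groups overlapped throughout except that CKO 2 was the lowest and CTL 2 the highest library, and the log2 fold change was -0.04 with an interval of -0.37 to 0.29 (edgeR adjusted p = 0.944).

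**Figure D2:**
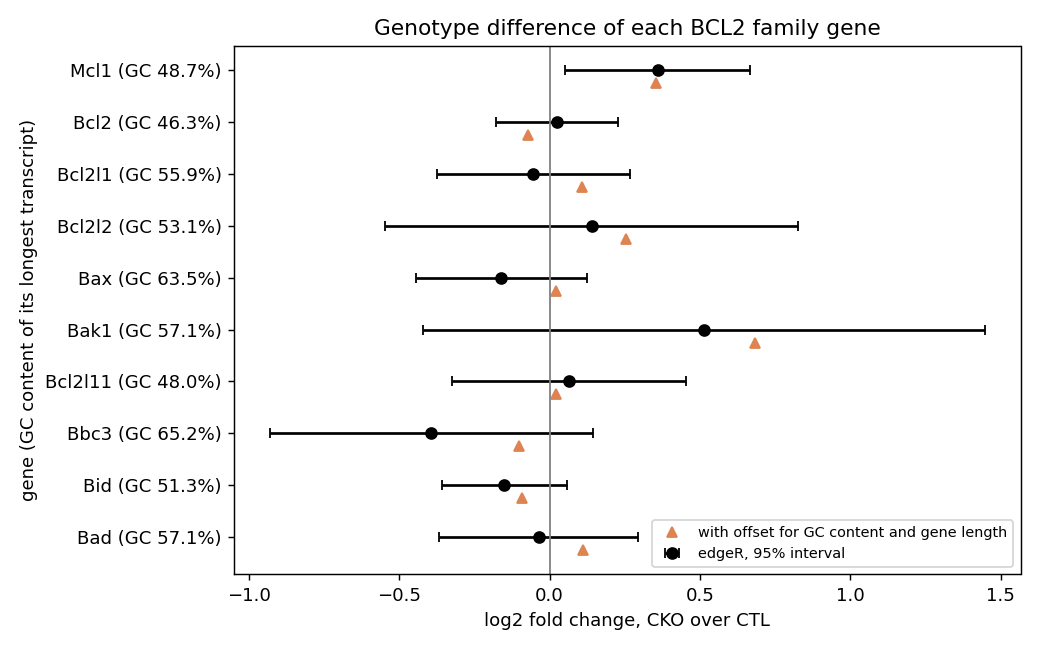
Log2 fold change of each member, CKO minus CTL, as a point with its 95% interval, with the estimate corrected for GC content and gene length as a triangle, and the GC content of each gene beside its name. Only the interval of *Mcl1*, 0.05 to 0.67, lies wholly on one side of 0 without the offset.

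The members' transcripts differ in base composition, from a GC content of 46.3% in *Bcl2* and 48.7% in *Mcl1* to 63.5% in *Bax* and 65.2% in *Bbc3*. Over the 10 members GC content and log2 fold change had a Spearman's rho of -0.50, and over the 13895 tested genes with a GC content it was -0.45, as a description across genes that share the same libraries. After an offset for GC content and length, the log2 fold change of *Mcl1* was 0.36 (edgeR adjusted p = 0.494), that of *Bak1* 0.68, *Bbc3* -0.10 and *Bid* -0.09. Without the library labelled CKO 3 and without the offset, the log2 fold changes were 0.0040 for *Bcl2*, -0.049 for *Bcl2l1*, 0.056 for *Bcl2l2*, -0.15 for *Bax* and 0.54 for *Bak1*. They were 0.089 for *Bcl2l11*, -0.15 for *Bid* and -0.0035 for *Bad*, and no sign turned. With all libraries, the sign turned with the offset for *Bcl2* (-0.07), *Bcl2l1* (0.11), *Bax* (0.02) and *Bad* (0.11), and no member was called. The offset is fitted to each library and can also take away a difference of genotype that follows GC content. Reads were counted per gene, so the short forms of *Mcl1*, *Bcl2l1* and *Bcl2l11*, some of which act in the opposite sense or with another potency, were not resolved. The exons of *Bcl2*, *Bak1*, *Bid* and *Bad* overlap a counted gene on the opposite strand over 558, 614, 628 and 524 bases, in the order given, and those of *Bcl2l2* and *Bax* overlap an annotated gene of the same strand over 594 and 192 bases. The use of strand in counting is not given in the sources used here, so the reads of those stretches are uncertain.

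Levels of different genes were compared as RPKM, which divides CPM by the deposited gene length in kilobases. That length was below the annotated exon bases of every member except *Mcl1* (3488 against 3418). It was 869 against 1576 bases in *Bax*, 1891 against 3550 in *Bid* and 2371 against 4586 in *Bcl2l1*. The order of the members, their shares and the level of the anti- to pro-apoptotic ratio depend on these lengths, and RPKM with the exon bases was not computed. *Mcl1* was the most abundant member per length, at 63.1 ± 13.8 RPKM in CTL and 80.9 ± 13.5 RPKM in CKO (SD, n = 5 each). *Bax* followed with 59.4 ± 5.25 and 53.1 ± 8.14 RPKM, and then *Bid* with 49.9 ± 6.40 and 44.9 ± 1.17 RPKM. *Mcl1* exceeded *Bax* in 3 of 5 CTL libraries and in 5 of 5 CKO libraries, so these neighbours were not separated beyond their spread in CTL. *Bcl2l1* had 33.0 ± 4.71 and 31.8 ± 7.21 RPKM, below *Bid* in all libraries. *Bad* with 23.9 ± 3.34 and 23.3 ± 3.33 RPKM and *Bcl2* with 22.6 ± 2.88 and 23.0 ± 1.92 RPKM could not be ordered, since *Bad* was the higher in 3 CTL and 2 CKO libraries. *Bax* exceeded *Bid* in 5 CTL and 4 CKO libraries. The remaining members were scarce. *Bbc3* had 8.37 ± 1.58 and 6.37 ± 1.70 RPKM, *Bcl2l11* 4.80 ± 0.925 and 5.00 ± 0.685, *Bcl2l2* 3.07 ± 1.27 and 3.40 ± 0.661, and *Bak1* 1.78 ± 0.301 and 2.55 ± 0.759. *Bbc3* exceeded *Bcl2l11* in 5 CTL and 4 CKO libraries, *Bcl2l11* exceeded *Bcl2l2* in 4 and 5, and *Bcl2l2* exceeded *Bak1* in 4 and 4. The order of the 10 means was the same in both genotypes. *Bax* transcript per length was thus far above that of *Bak1*, the other effector, in every library.

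**Figure D3:**
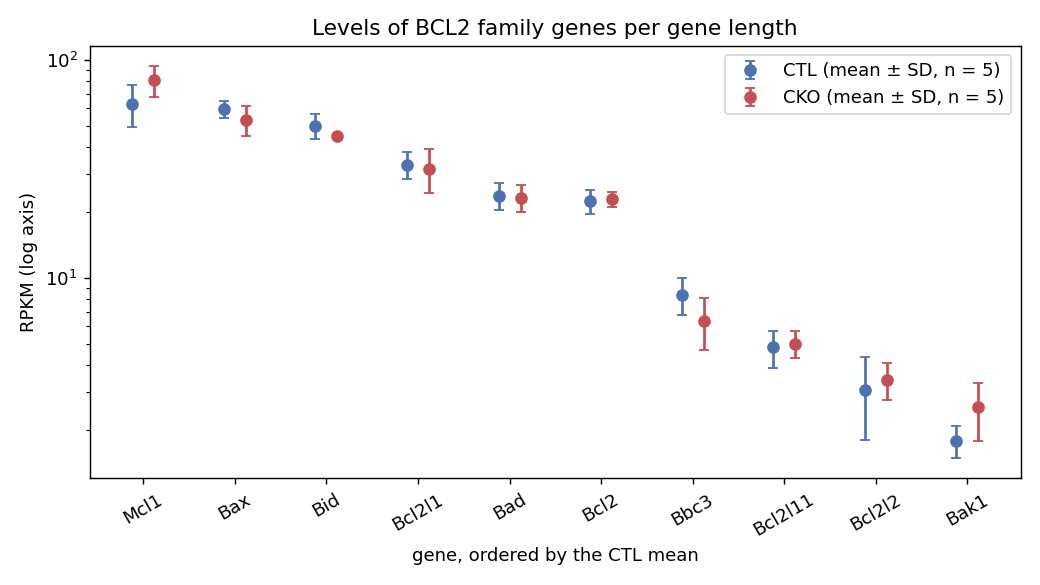
RPKM of the members (log axis) in order of their CTL mean, with the mean ± SD of the 5 CTL (blue) and 5 CKO (red) libraries. The order runs from *Mcl1*, at 63.1 RPKM in CTL and 80.9 in CKO, to *Bak1*, at 1.78 and 2.55.

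The balance of the members was described by summing RPKM, with the deposited gene lengths, within each role. The 4 anti-apoptotic members summed to 111, 120.4, 128, 109 and 140.1 RPKM in CTL 1 to CTL 5 and to 142, 144, 132, 133 and 144 RPKM in CKO 1 to CKO 5. All CKO libraries lay above every CTL library except CTL 5. The mean sum was 121.8 RPKM in CTL and 139.2 in CKO, and *Mcl1* alone had 63.1 and 80.9 RPKM. The rise of this sum is thus the *Mcl1* difference, which was not called, and no separate result. The 6 pro-apoptotic members summed to 167, 152, 145, 135 and 141 RPKM in CTL and to 135, 122, 130.5, 144 and 145 RPKM in CKO, so these groups overlapped more widely. *Mcl1* made up 51.3 ± 5.76% of the anti-apoptotic sum in CTL and 57.9 ± 7.57% in CKO, and *Bax* and *Bid* together made up 73.7 ± 2.77% and 72.4 ± 2.72% of the pro-apoptotic sum.

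The log2 ratio of the anti-apoptotic to the pro-apoptotic sum was -0.59, -0.34, -0.18, -0.31 and -0.01 in CTL 1 to CTL 5, and 0.07, 0.24, 0.02, -0.11 and -0.01 in CKO 1 to CKO 5. The groups overlapped because CTL 5 lay within the CKO range, and the other CTL libraries all lay below every CKO library. The means were -0.29 ± 0.21 in CTL and 0.04 ± 0.13 in CKO (SD, n = 5 each), a difference of 0.33 on the log2 scale, and the linear ratio was 0.827 ± 0.120 and 1.03 ± 0.0952. No test was made on this score. Its difference was 0.29 with CPM in place of RPKM, 0.18 with the mean of log2 RPKM, in which scarce members weigh as much as abundant ones, and 0.22 after the GC and length offset. After that offset the pro-apoptotic sums ran from 131.9 to 156.2 RPKM in CTL and from 136.3 to 143.4 RPKM in CKO, inside the CTL range.

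**Figure D4:**
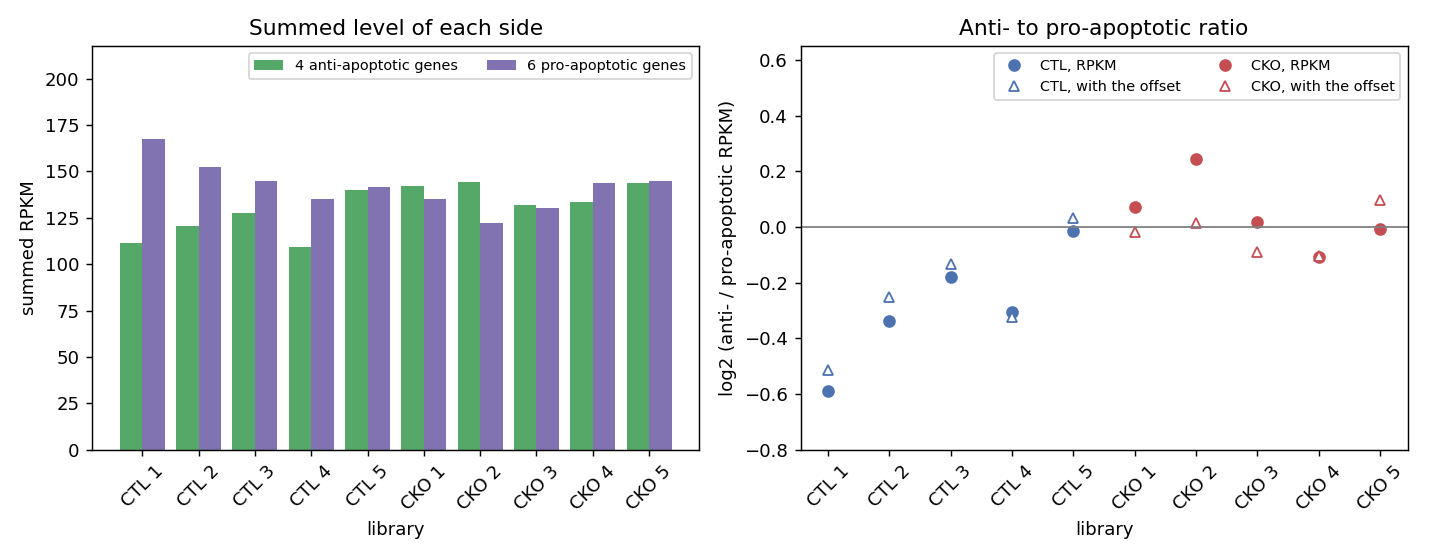
Left, summed RPKM of the 4 anti-apoptotic (green) and 6 pro-apoptotic (purple) members in each library. Right, log2 ratio of these sums per library (filled circles) and the same after the GC and length offset (open triangles). Without the offset, CTL libraries lie between -0.59 and -0.01 and CKO libraries between -0.11 and 0.24.

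Of the 24 ratios of an anti-apoptotic to a pro-apoptotic member, 1 had CTL and CKO ranges without overlap, and of 53124 ratios of an anti-apoptotic member to any other tested gene with a count in each library 1.66% did. It was the ratio of *Mcl1* to *Bbc3* in RPKM, the pair of a survival protein and a BH3-only protein that binds it. It was 7.17, 5.58, 8.13, 7.28 and 10.01 in CTL and 11.2, 11.4, 16.3, 12.2 and 14.2 in CKO. CKO 3 was the highest of all libraries, and the means were 7.63 ± 1.62 in CTL and 13.1 ± 2.18 in CKO (SD, n = 5 each). *Mcl1* and *Bbc3* also lay near the opposite ends of the members' GC content. With the GC and length offset the log2 fold change of *Bbc3* was -0.10 in place of -0.39, and that of *Mcl1* stayed at 0.36. The ratio was not recomputed with the offset, and the part of GC content in it was not tested. The ratio was singled out after its values were seen.

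The other genes of the pathway were followed as lists. Of 15 other BCL2 family genes, 8 were tested, with 4 positive and 4 negative log2 fold changes, a median of -0.03 and no call. The anti-apoptotic *Bcl2a1a*, *Bcl2a1b* and *Bcl2a1d*, which share near-identical sequence, had at most 3, 17 and 6 counts in any library and were not tested. *Bcl2l10*, *Bik*, *Hrk* and *Bcl2l15* were likewise too low to be tested. The smallest p-values of the list belonged to BH3-only genes. *Bmf*, which senses detachment and stress of the cytoskeleton, was expressed at 5.25 ± 2.75 CPM in CTL and 2.60 ± 1.80 CPM in CKO (log2 fold change -1.003, interval -2.58 to 0.57, edgeR adjusted p = 0.616). *Pmaip1*, which encodes NOXA, the BH3-only protein selective for MCL-1, was expressed at 4.17 ± 1.32 and 7.97 ± 7.66 CPM (log2 fold change 0.93, interval -0.61 to 2.47, edgeR adjusted p = 0.629). The 2 highest CKO libraries of *Pmaip1* were CKO 4 at 17.9 CPM and CKO 3 at 13.95 CPM, and CKO 1 was the lowest library at 0.475 CPM. With 0 to 30 counts per library for *Bmf* and 2 to 61 for *Pmaip1*, neither difference could be told from the spread between mice.

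Downstream of the family, all 13 genes of the apoptosome, the caspases and the factors released from mitochondria were tested, and 6 had positive and 7 negative log2 fold changes with a median of -0.06 and no call. *Casp9*, the initiator caspase of the apoptosome, was expressed at 42.3 ± 6.62 CPM in CTL and 35.1 ± 3.59 CPM in CKO (log2 fold change -0.27, edgeR adjusted p = 0.453, -0.16 after the offset), and *Apaf1*, its scaffold, at 57.2 ± 13.3 and 68.8 ± 9.58 CPM (0.26, adjusted p = 0.521, 0.17 after the offset). All 5 inhibitors of apoptosis were tested, with 3 positive and 2 negative values, a median of 0.13 and no call. *Xiap*, which blocks caspase-9 and caspase-3, was at 92.1 ± 15.0 CPM in CTL and 117 ± 20.5 CPM in CKO (log2 fold change 0.35, unadjusted p = 0.0220, adjusted p = 0.311, edgeR), and its log2 fold change was 0.18 after the offset, its GC content being 36.8%. *Birc6*, a large ubiquitin-conjugating inhibitor, was at 244 ± 30.1 and 285 ± 49.998 CPM (0.23, adjusted p = 0.457, 0.066 after the offset).

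Genes whose products control the turnover of MCL-1 mostly had positive log2 fold changes, and none passed the test in edgeR. Of 11 such genes 10 were tested, 9 with a positive and 1 with a negative log2 fold change, from -0.15 to 0.70. Over all tested genes, 7231 of 14165 had a positive value. The median was 0.09 for the list against 0.01 for all tested genes. Some positive values were near 0, such as 0.0058 for *Ogt* and 0.045 for *Skp1a*. The part of GC content in the signs of the list was not tested. The list mixes genes that mark MCL-1 for degradation with a deubiquitinase that stabilizes it, so a shared sign has no single meaning for its turnover. *Fbxw7*, the substrate receptor of a ubiquitin ligase that marks MCL-1 for degradation, was expressed at 32.4, 17.2, 23.2, 18.5 and 26.5 CPM in CTL and at 41.1, 40.1, 33.6, 35.0 and 40.6 CPM in CKO. All CKO libraries lay above all CTL libraries, CKO 3 included. No other tested gene of the 6 lists had ranges without overlap, where 471 of all 14165 tested genes (3.33%) did. The log2 fold change was 0.70 (standard error 0.18, interval 0.30 to 1.09), with an adjusted p of 0.130 in edgeR and 0.0252 in DESeq2, and it was 0.63 (edgeR adjusted p = 0.360) after the offset. *Usp9x*, a deubiquitinase that stabilizes MCL-1 and so acts in the opposite sense to *Fbxw7*, was expressed at 127, 134, 128, 152 and 160 CPM in CTL and at 191, 194, 170, 154 and 168 CPM in CKO. CKO 4 lay inside the CTL range and the other CKO libraries above it. Its log2 fold change of 0.32 (standard error 0.09) had an adjusted p of 0.158 in edgeR and 0.0452 in DESeq2, and it was 0.12 (edgeR adjusted p = 0.718) after the offset. GC content was 46.6% in *Fbxw7* and 40.0% in *Usp9x*. *Fbxw7* and *Usp9x* were the only genes of these 6 lists and the 10 members that DESeq2 called. Over all tested genes, DESeq2 called 296 of 14165 (2.09%).

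**Figure D5:**
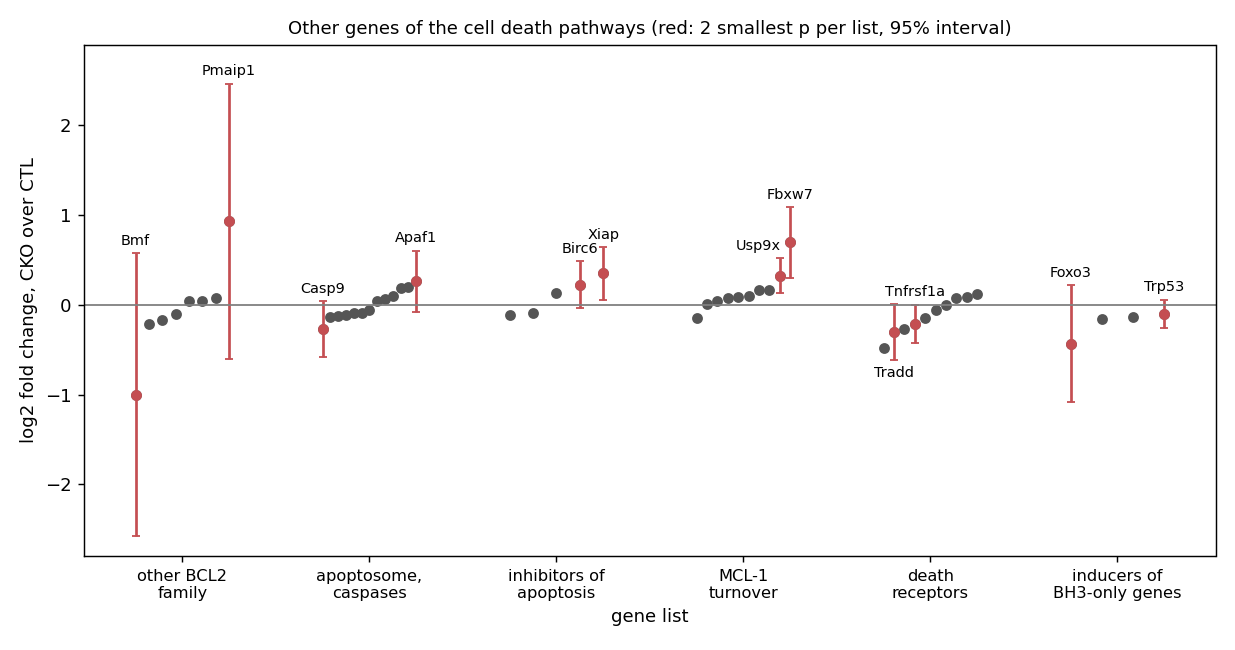
Log2 fold change, CKO minus CTL, of the tested genes of the 6 other lists, with a point per gene, and in red the 2 genes per list with the smallest p and their 95% intervals. The genes of MCL-1 turnover have 9 of 10 values above 0, from 0.0058 for *Ogt* to 0.70 for *Fbxw7*, where 7231 of all 14165 tested genes have a value above 0. The values are without the offset for GC content and length.

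Upstream, 10 of 11 death receptor genes were tested, with 3 positive and 7 negative values, a median of -0.11 and no call. *Tnfrsf1a*, a receptor of tumour necrosis factor, was at 118 ± 4.27 CPM in CTL and 102 ± 14.6 CPM in CKO (log2 fold change -0.21, edgeR adjusted p = 0.388), with -0.05 after the offset. Its adaptor *Tradd* had a log2 fold change of -0.30 (edgeR adjusted p = 0.403), with -0.16 after the offset. Of 5 transcription factors that induce BH3-only genes 4 were tested, and all 4 had a negative value with a median of -0.15 and no call. *Foxo3*, which drives *Bcl2l11* and *Bbc3* when growth factor signals are low, was at 19.8 ± 8.30 and 14.6 ± 3.63 CPM (log2 fold change -0.43, interval -1.09 to 0.22, edgeR adjusted p = 0.598), and *Trp53*, which induces *Bbc3*, was at 238 ± 8.82 and 222 ± 22.0 CPM (log2 fold change -0.10, edgeR adjusted p = 0.621). After the offset the value was -0.32 for *Foxo3*, and it turned sign for *Trp53*, to 0.0018.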

How the data were processed

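RNA was measured in sorted HSCs of 5 Cited2 CTL and 5 Cited2 CKO mice, grouped by the genotype in the labels. Single-ended reads had been mapped by the authors with HISAT2 on GRCm38 and assigned to genes with Rsubread, and the deposited table holds raw counts and a gene length for each symbol. The annotation, the use of strand and the treatment of reads matching several genes are not given in the sources used here. The analysis used edgeR 4.0.16 under R 4.3.3. After filterByExpr and TMM scaling, a quasi-likelihood F test compared CKO with CTL over 14165 genes. A gene was called at an adjusted p under 0.05 with a fold change above 20%. CPM and RPKM were computed from the TMM-scaled totals and the deposited gene lengths. Depth limits scarce genes, and the common biological coefficient of variation was 25.3%. Single values were compared with two-sided exact permutation tests.

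Positions, GC content (longest transcript) and coding sequences were taken from the GENCODE vM21 annotation of GRCm38. Alternatives were DESeq2 1.42.0 with the Wald test, DESeq2's size factors, totals without TMM, no filter, at least 10 counts in every library, the replicate number as a block, an offset for GC content and length (loess, span 50%), each library left out, and other forms of the balance. The balance with the offset was added after the data were seen. The scripts were tested on simulated data. The members and the lists were chosen with earlier results of these data known. All members were named, and of each other list the genes called, or otherwise the 2 with the smallest p. All 10 libraries differed by more than counting noise. Nothing says whether mice shared a litter or a sort, so p-values measure the spread between mice as sampled.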

Additional observations from a re-analysis of the deposited data

Results flagged for a closer look

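Of 24 sets of 5 libraries examined (12 quantities in each genotype), 3 held a library far from the other 4, and chance gives such a gap in about 1 of 20 sets. *Cited2* was at 120.1 CPM in the library labelled CKO 3, where the other CKO libraries had 3.80 to 8.30 CPM. *Bcl2* was at 153 CPM in CKO 1, where the other CKO libraries had 179 to 189 CPM. *Bid* was at 115 CPM in CTL 1, where the other CTL libraries had 83.1 to 92.4 CPM, and the negative log2 fold change of *Bid* was -0.08 without that library.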

How the results depend on the processing

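No member was called under any of the alternatives. *Mcl1* kept its direction under all 17, with log2 fold changes from 0.29 to 0.49 and edgeR or DESeq2 adjusted p-values from 0.139 to 0.533. The sign turned with the offset for *Bcl2* (-0.071), *Bcl2l1* (0.11), *Bax* (0.022) and *Bad* (0.11). Leaving out each library gave -0.047 to 0.083 for *Bcl2*, -0.20 to 0.020 for *Bcl2l1*, -0.014 to 0.36 for *Bcl2l2*, -0.015 to 0.15 for *Bcl2l11* and -0.094 to 0.038 for *Bad*, and it turned no sign for *Bax* (-0.24 to -0.098), *Bak1* (0.35 to 0.65), *Bbc3* (-0.51 to -0.28) or *Bid* (-0.20 to -0.079). The balance difference was 0.25 (without CTL 1) to 0.40 (without CTL 5) with 1 library left out, and 0.18 to 0.31 under its other forms.

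Over all genes, where 17 were called higher and 15 lower, DESeq2's Wald test called 296 (138 higher, 158 lower), 2 of them in the other lists. The offset called 9 (6 higher, 3 lower). Leaving out each library gave 8 to 42 calls (5 to 27 higher, 3 to 18 lower), with 8 without CKO 2, 10 without CTL 4, 11 without CTL 2, 14 without CKO 1 or CKO 5, 16 without CTL 1 or CTL 3, and 42 without CKO 3. The cause was not tested.

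The correlations of same-numbered libraries ran from -0.095 to 0.21, and only the libraries numbered 5 were each other's best match. With so few libraries these correlations cannot exclude that the numbers pair some samples. With the number as a block 24 genes were called (15 higher, 9 lower), no member among them. *Mcl1* then had a log2 fold change of 0.37, with a standard error of 0.11 in place of 0.14 (edgeR unadjusted p = 0.0064, adjusted p = 0.235). Members with few counts, *Bak1*, *Bcl2l2* and *Bbc3*, had the widest intervals.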
